A study of Mus musculus with 24 samples.

Results

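To describe how messenger RNAs of the replication-dependent histone genes behave when the mouse oocyte matures and is fertilised, the expression table of the series was read for every gene whose symbol starts with Hist1h, Hist2h, Hist3h or Hist4h. These prefixes name the clustered genes for the core histones H2A, H2B, H3 and H4 and for the linker histone H1. The rule took 68 of the 23235 genes in the table. Of these, 54 lie in the Hist1 cluster, 10 in Hist2, 3 in Hist3 and 1 is Hist4h4. By the histone they encode, 6 are H1, 18 H2A, 19 H2B, 12 H3 and 13 H4 genes, and Hist3h2bb-ps is a pseudogene by its symbol.

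The series holds 24 RNA-seq libraries from C57BL/6 mice of postnatal day 21, with 2 libraries in each of 12 groups. Animals of 3 genotypes, wild type (WT), Cnot6l-/- and Btg4-/-, were each sampled as germinal vesicle oocytes (GV, 48 h after PMSG, a hormone that stimulates follicle growth), at metaphase I (MI, after 8 h of culture), at metaphase II (MII, after 16 h of culture) and as zygotes (24 h after hCG, a hormone that triggers ovulation). CNOT6L is one of the deadenylases of CCR4-NOT, the complex that trims poly(A) tails, and BTG4 is an adaptor that brings this complex to maternal mRNAs. The alleles are not described in the labels, and the label texts give the oocytes per library as 100 in one place and 2 in another. Nothing in the labels says that the 2 libraries of a group came from separate animals, so p-values measure the spread between these libraries only, which may be technical.

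Most mRNAs of clustered histone genes carry no poly(A) tail. They end just after a short stem-loop that is bound by the stem-loop binding protein SLBP, and this end is made when cells replicate DNA. Some of these genes can also give a polyadenylated mRNA from a signal further downstream, and growing oocytes store histone mRNA for the first divisions of the embryo. The libraries were made by Smart-Seq2, which primes cDNA synthesis at poly(A), while the title of the series speaks of total RNA. How far the priming sets the levels below was not tested. In bulk samples, fewer cells and less RNA per cell cannot be told apart.

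Values are the deposited FPKM, by definition fragment counts divided by the length of the gene model and by the depth of the library. What depth correction these values carry is unknown, so fold changes on this scale cannot be taken as corrected for depth. Cnot6l itself lay at 3.40 to 7.26 FPKM in the 8 Cnot6l-/- libraries and at 7.07 to 73.9 FPKM in the 8 WT libraries. Btg4 lay at 765 to 2515 FPKM in the libraries labelled Btg4-/- and at 554 to 2490 FPKM in WT, so its level does not separate these groups and "labelled Btg4-/-" is written throughout. The FPKM summed over all genes was lower at each later stage, with WT means of 497690 for GV, 159243 for MI, 98985 for MII and 62984 for zygote libraries, while Cnot6l-/- MII libraries summed to a mean of 190242. A second scale, with each library divided by its median ratio over 3677 genes above 1 FPKM in every library, moved the median log2 change of all genes by 0.044 to 1.0. All 10 oocyte marker genes were detected, with summed FPKM of at least 815 per library. Markers of 11 cumulus and granulosa genes summed to 5.92 to 6.13 FPKM at WT MII and to 8.49 to 14.5 at Cnot6l-/- MII, where Foxl2 was listed at 0 in both groups. Cyp19a1 had the highest mean of these genes, at 4.40 and 8.99 FPKM. The sums were higher at GV, at 19.5 to 26.5 FPKM in WT, 26.1 to 29.2 in Cnot6l-/- and 16.6 to 20.9 in labelled Btg4-/-. Markers of 7 sperm genes summed to 0.84 to 1.54 FPKM at WT MII and to 17.6 to 18.02 at Cnot6l-/- MII. Tnp1 and Tnp2 were listed at 0 in both groups, and Ldhc had the highest mean of the 7, at 0.615 and 12.995 FPKM. The sperm marker sums were highest in GV oocytes of every genotype. They were 33.29 to 33.48 FPKM in WT, 65.46 to 84.26 in Cnot6l-/- and 36.83 to 58.95 in labelled Btg4-/-. In zygotes they were 1.23 to 1.82, 0.87 to 2.3 and 2.51 to 3.04 FPKM in the same order. The part of cumulus, granulosa or sperm cells in any result was not tested.

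The sequence that defines the family was present downstream of nearly all members. A search for the stem-loop (GGNNNNTTNNNNNNCC on the gene's strand with a perfect stem of 6 base pairs and a loop of 4 bases) found it for 62 of the 68 members in 6 distinct forms, starting a median of 30 bases after the stop codon (range 21 to 58) for members with an annotated stop in the model. The search covered 200 bases after the stop codon. Where a model held several annotated stop codons, a stop followed by a stem-loop was taken first. For members without an annotated stop in the model, 100 bases on each side of the model end were searched. Hist1h2br, searched this way without a match, has the same model span as Hist1h2bq, where a stem-loop was found. Hist1h2ao and Hist1h2ap share the same stem-loop position, as do Hist1h4m and Hist1h4n, and Hist2h2aa1 and Hist2h2aa2. The counts are therefore of members and not of separate stem-loops. The sequences below are from the mm9 genome and are shown for 7 of the members whose levels are described, with 4 of the 6 forms among them. Capitals mark the 16 bases of the stem-loop, and the flanks are 5 bases on each side.
Hist1h2bc, chr13:23776516-23776531, plus strand: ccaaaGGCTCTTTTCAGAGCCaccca
Hist1h2aa, chr13:24026760-24026775, plus strand: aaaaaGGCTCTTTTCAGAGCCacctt
Hist3h2ba, chr11:58762851-58762866, plus strand: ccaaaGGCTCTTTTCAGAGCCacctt
Hist1h1a, chr13:23856261-23856276, plus strand: ccaacGGCTCTTTTCAGAGCCaccaa
Hist1h2ba, chr13:24025599-24025614, minus strand: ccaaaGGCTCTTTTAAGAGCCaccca
Hist1h4h, chr13:23623327-23623342, plus strand: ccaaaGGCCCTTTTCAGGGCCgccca
Hist1h4i, chr13:22132835-22132850, minus strand: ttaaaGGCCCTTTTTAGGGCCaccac

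The form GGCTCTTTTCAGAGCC, seen in Hist1h2bc, Hist1h2aa, Hist3h2ba and Hist1h1a, was shared by 40 members. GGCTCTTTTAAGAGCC, seen in Hist1h2ba, was found in 9 members. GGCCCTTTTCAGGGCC, seen in Hist1h4h, was found in 8 members, all of them H4 genes. Within 150 bases after the stop codon a stem-loop of this pattern stood in 58 of the 66 members with a coding transcript under their symbol in the annotation, inside or outside the table's model (87.9%), and in 11 of 22299 other coding genes (0.0493%). One of these 11 is H2afx, which encodes the histone variant H2A.X, and is named here after the matches were seen. The stem-loops of Hist1h2bc and Hist1h1a are the same over all 16 bases, but that of Hist1h2bc lies in an intron of its annotated transcript, as described below. A link between the stem-loop and the levels was not tested.

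Members differ in where the gene model used for counting ends. For 34 members it ends before the last base of the stem-loop, for 8 it ends 0 to 20 bases after it, and for 20 it runs more than 20 bases past it. For the other 6 no stem-loop was found. A poly(A) signal (AATAAA or ATTAAA, on the gene's strand) lay in the last 50 bases of 16 of the 68 models (23.5%). The share was 67.1% for 23100 other gene models of the table, those on the chromosomes searched. Of these 16 members, 6 reached a group mean of 5 FPKM or more, as did 6 of the 52 members without such a signal, and the median of the highest group mean was 0.780 and 0.325 FPKM. These are descriptions of the models and give no polyadenylation site. The signals of the H2B members with the highest levels are shown, with capitals marking the signal.
Hist1h2bc, chr13:23784321-23784346, plus strand: atgtatatatAATAAAtgtcatgtaa
Hist3h2ba, chr11:58762999-58763024, plus strand: taatggtattAATAAAtttggttcaa

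The annotated Hist1h2bc transcript is spliced, which sets its stem-loop inside an intron. Exon 1 (chr13:23776068-23776490) holds the coding sequence, with the stop codon at 23776479 to 23776481. The intron of 7554 bases (chr13:23776491-23784044) holds the stem-loop. Exon 2 of 313 bases (chr13:23784045-23784357) holds the AATAAA shown above. The end of exon 1 and the start of the intron are shown, and capitals mark the first bases of the intron.
Hist1h2bc, chr13:23776481-23776502, plus strand: atcctgccaaGTaagcctccgt

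**Figure D1:**
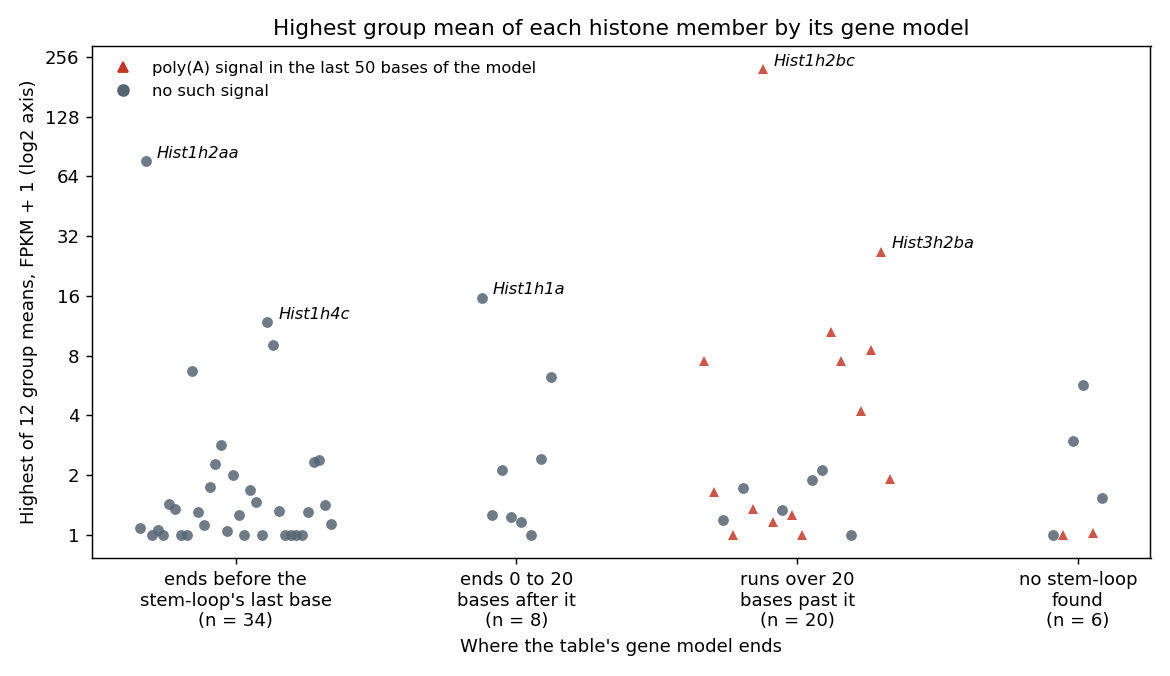
Highest of the 12 group means of each of the 68 members (FPKM + 1, log2 axis) against where its gene model ends relative to the stem-loop; each point is 1 member, and triangles mark a poly(A) signal in the last 50 bases. Hist1h2bc and Hist3h2ba are triangles in the class that runs past the stem-loop, while Hist1h2aa, with the second highest level, has a model that ends before it.

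Few members were detected well. All libraries listed 16 members at 0, and 23 of 68 passed the filter for testing (1 FPKM or more as the mean of any group). The 16 include overlapping models, Hist1h2ao with Hist1h2ap, Hist1h2bq with Hist1h2br, Hist2h2aa1 with Hist2h2aa2, and Hist1h4n, which overlaps Hist1h4m. Reading frames were compared only between members with frames of equal length. Frames at least 95% identical were found in 10 members for Hist1h2ag, 9 for Hist1h2bj and 8 for Hist1h4h, but 0 for Hist3h2ba. How shared reads were assigned was not tested, so a listed 0 does not show absence of the transcript. The highest group mean was 5 FPKM or more for 12 members and 10 or more for 5. No member with an H3 product reached 5. Since a member could pass the filter through the group in which it is high, counts over the 23 describe only those. Hist2h2ac and Hist2h3b passed through WT GV alone, and Hist1h2ag and Hist1h4m through Cnot6l-/- GV alone, so the direction of their differences from that group follows from the filter and supports nothing. Among the 45 below the filter, the highest value in any library was 1.54 FPKM, in Hist1h3a.

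Hist1h2bc, an H2B gene, was the highest member in GV oocytes of every genotype. In WT it lay at 111 and 93.5 FPKM at GV, 41.2 and 34.6 in MI oocytes, 1.38 and 1.73 in MII oocytes and 0.480 and 1.11 in zygotes. In Cnot6l-/- it lay at 161 and 280 FPKM at GV, 150 and 171 in MI oocytes, 129 and 181 in MII oocytes and 45.1 and 164 in zygotes. In the labelled Btg4-/- libraries it lay at 187 and 250, 142.5 and 175, 67.1 and 77.9, and 34.7 and 46.8 FPKM at the same stages. The WT and mutant libraries did not overlap at any stage, and the gap was widest at MII and in zygotes. The Hist1h2bc reading frame of 378 bases is 98.9% identical to that of Hist1h2bj, with a longest shared run of 152 bases, and 9 members are at least 95% identical to it, so reads within the frame could be split between copies. Hist1h2bj had a highest group mean of 1.27 FPKM.

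Hist1h2aa encodes TH2A, an H2A variant of testis and oocyte. In WT it lay at 46.4 and 62.0 FPKM at GV, 14.6 and 16.0 in MI oocytes, 3.17 and 5.97 in MII oocytes and 7.20 and 2.92 in zygotes. In Cnot6l-/- it lay at 72.9 and 77.1, 26.2 and 45.9, 32.7 and 39.5, and 15.6 and 31.5 FPKM, above every WT library of its stage. In the labelled Btg4-/- libraries it lay at 40.8 and 75.1, 40.7 and 47.6, 16.2 and 13.2, and 16.1 and 8.78 FPKM, which overlaps WT at GV and lies above WT from MI on. The Hist1h2aa reading frame was compared with 1 member of equal frame length, Hist2h2ac, and was 82.7% identical to it. Members with frames of other lengths were not compared. Hist1h2ba, which encodes the partner variant TH2B and lies next to Hist1h2aa on the other strand (chr13:24025642-24026025 against chr13:24026331-24026720), was far lower, at 3.84 and 7.53 FPKM at WT GV and 0.470 and 0.990 at WT MII.

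Hist1h1a encodes a linker histone of the H1 family. In WT it lay at 8.69 and 20.5 FPKM at GV, 17.0 and 9.64 in MI oocytes, 3.95 and 4.81 in MII oocytes and 2.84 and 3.33 in zygotes. In Cnot6l-/- it lay at 2.22 and 5.44, 1.53 and 1.34, 0.120 and 0.830, and 1.05 and 3.15 FPKM. The Cnot6l-/- libraries lay below both WT libraries at GV, MI and MII and overlapped them in zygotes. In the labelled Btg4-/- libraries it lay at 6.93 and 10.4, 11.2 and 12.5, 1.26 and 3.53, and 2.77 and 5.67 FPKM, which overlaps WT at GV, MI and in zygotes but not at MII.

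The neighbouring H2B and H2A genes Hist3h2ba and Hist3h2a lie on chromosome 11. Hist3h2ba lay at 15.6 and 31.4 FPKM at WT GV and at 1.84 and 0.960 at WT MI, while it lay at 5.27 and 7.47 in Cnot6l-/- MI and at 24.2 and 27.1 in labelled Btg4-/- MI. By MII it lay at 0.670 and 3.58 FPKM in WT, 1.79 and 1.75 in Cnot6l-/- and 2.01 and 6.23 in labelled Btg4-/-, and these overlap. Hist3h2a lay at 5.21 and 4.53 FPKM at WT GV and 0.020 in both WT MII libraries, at 9.62 and 5.51 in Cnot6l-/- GV and 1.37 and 0.390 at Cnot6l-/- MII, and at 1.13 and 2.24 in labelled Btg4-/- GV.

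The levels listed for H4 members stayed low. Hist1h4i was listed at 0 in both WT MI libraries, against 2.89 and 2.03 FPKM in Cnot6l-/- and 2.76 and 3.69 in labelled Btg4-/-. Hist1h4h lay at 2.61 and 5.19 FPKM at WT GV and was listed at 0 in both WT MII libraries, where Cnot6l-/- held 2.63 and 3.49. Hist1h4c followed no single order of stages, and lay at 2.02 and 4.51 FPKM at WT GV, 12.7 and 8.78 in Cnot6l-/- GV, 0 and 0.970 at WT MII and 4.16 and 2.35 in WT zygotes. Hist1h4d lay at 4.04 and 4.35 FPKM at WT GV and at 1.05 and 8.21 in Cnot6l-/- zygotes, a wide gap between replicates. The remaining members of the 12, Hist1h1c (H1) and Hist2h2bb (H2B), lay at 4.70 and 8.31, and 5.81 and 4.63 FPKM at WT GV. The other 11 tested members had highest group means between 1.01 FPKM (Hist1h2bm) and 4.67 FPKM (Hist1h4a, set by 9.35 in 1 WT GV library against 0 in the other).

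**Figure D2:**
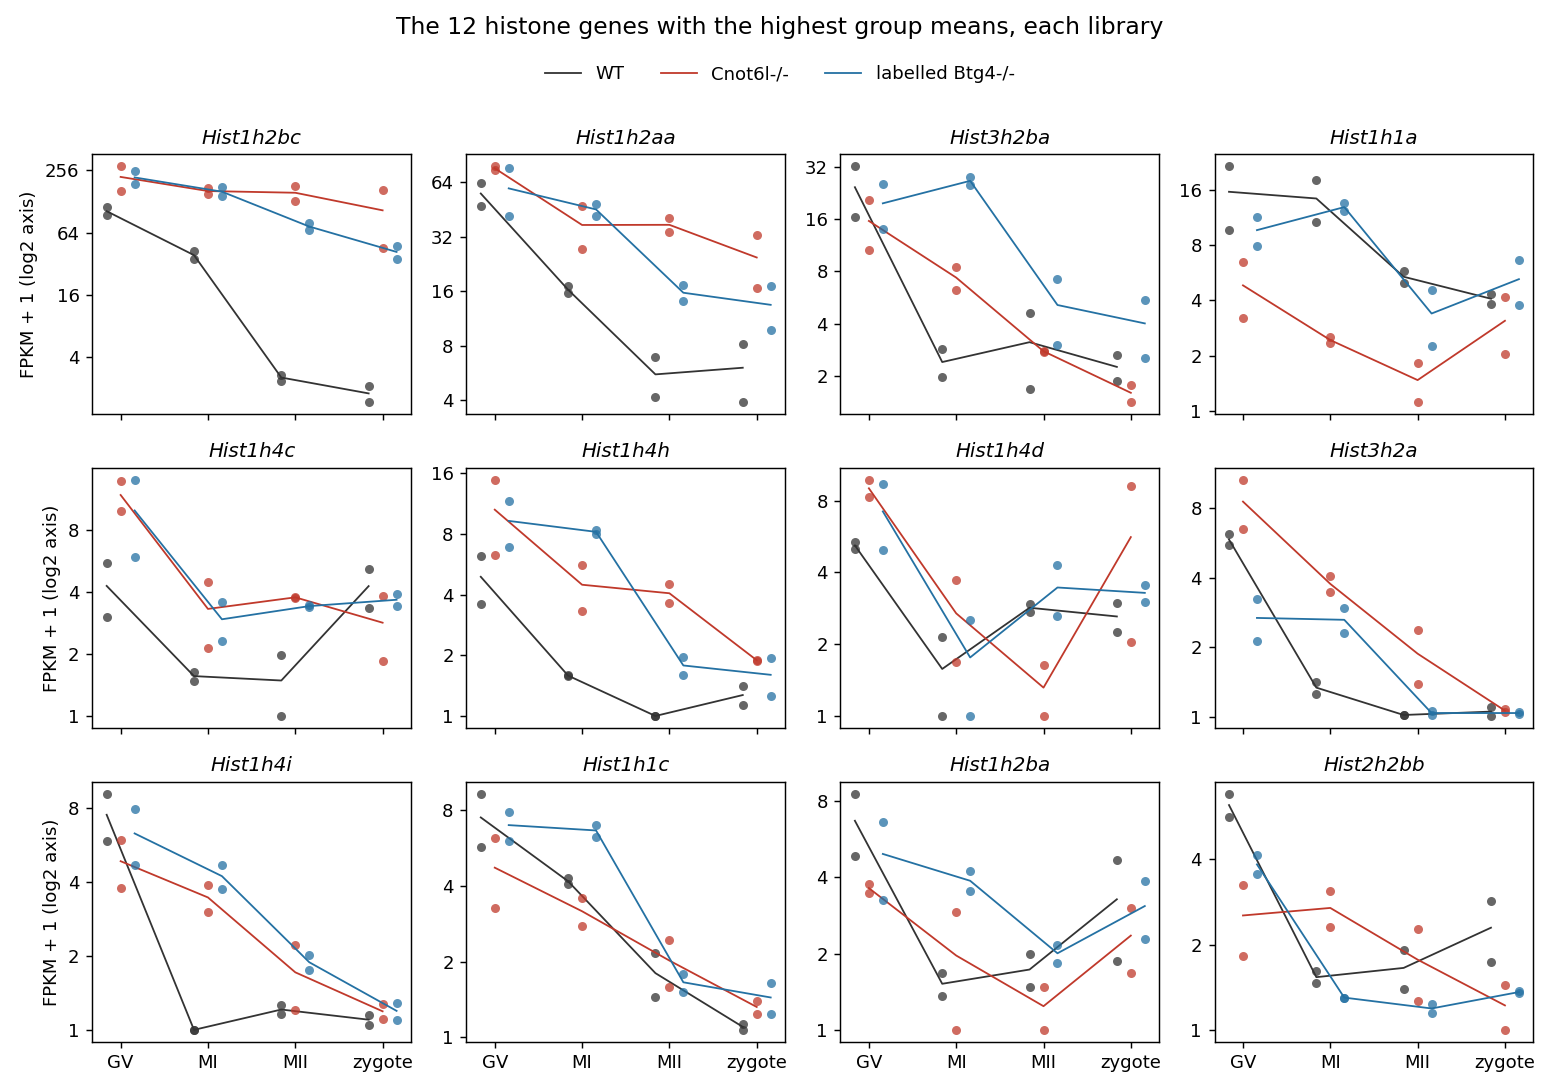
FPKM + 1 (log2 axis, each panel with its own range) of the 12 tested members with the highest group means at GV, MI, MII and zygote; dots are single libraries, lines join group means, and colours are WT, Cnot6l-/- and labelled Btg4-/-. Hist1h2bc falls to 1.38 and 1.73 FPKM at WT MII and stays at 129 and 181 in Cnot6l-/-, whereas Hist1h1a is lower in Cnot6l-/- at GV, MI and MII.

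Summed over the 68 members, WT libraries held 225 and 276 FPKM at GV and 13.4 and 24.4 at MII. In Cnot6l-/- the sum was 303 and 456 at GV and 175 and 239 at MII, and in labelled Btg4-/- it was 283 and 431, and 96.6 and 112. Hist1h2bc made up 33.9% to 49.5% of the sum at WT GV, 7.10% to 10.3% at WT MII, 73.5% to 75.6% at Cnot6l-/- MII and 69.4% to 69.7% at labelled Btg4-/- MII. Without Hist1h2bc, the sum at MII was 12.1 and 22.7 FPKM in WT, 46.5 and 58.5 in Cnot6l-/- and 29.5 and 33.8 in labelled Btg4-/-.

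**Figure D3:**
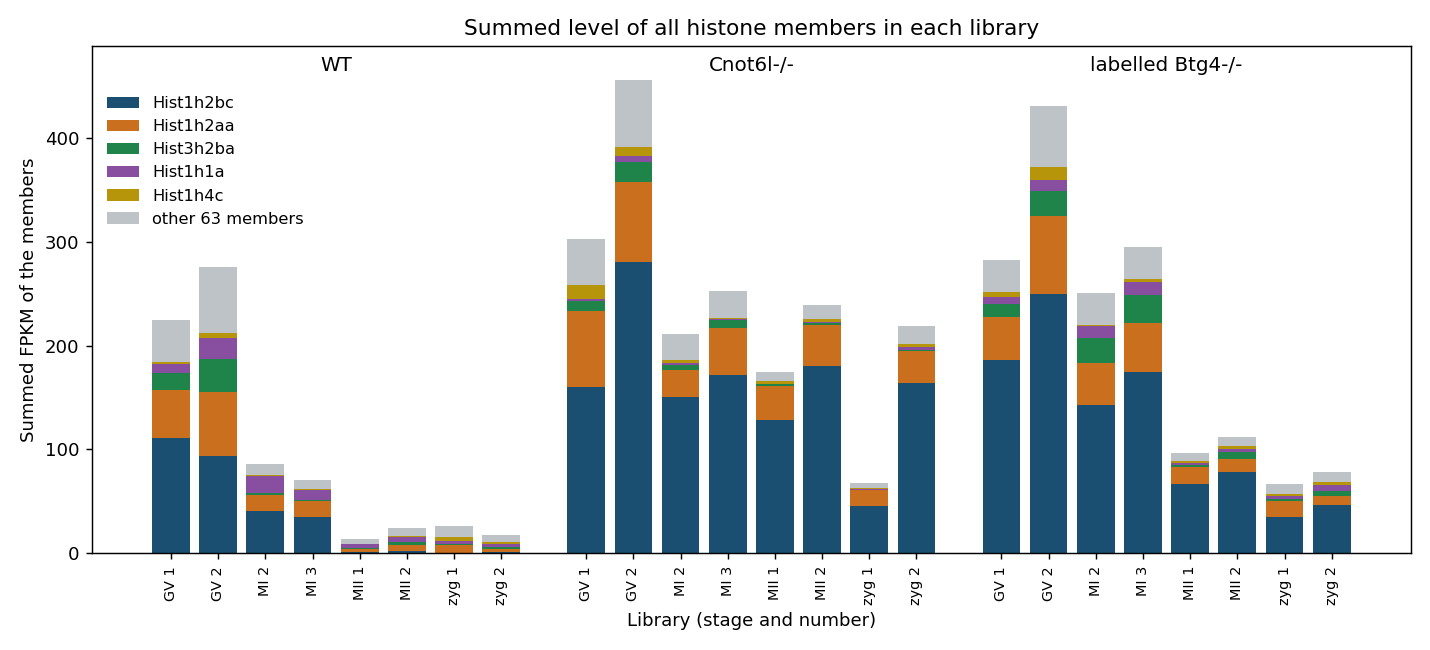
Summed FPKM of the 68 members in each of the 24 libraries, stacked by the 5 members with the highest group means and the other 63; libraries are named by stage and number, and MI columns are numbered 2 and 3 in the table. Hist1h2bc makes up most of the bars at MII in both mutants and little of the WT bars.

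To follow the members through maturation, groups were compared on log2(FPKM + 1) with limma, whose test uses the spread of all 24 libraries, with Benjamini-Hochberg adjustment over 10884 genes and calls at adjusted p under 0.05. Log2 changes on this scale understate the change of low genes. From GV to MI in WT, 13 of 23 tested members fell and 0 rose, while 65.1% of all tested genes fell and 0.753% rose. The 13 include Hist2h2ac, which passed the filter through WT GV alone. The median change of the members was -0.94 and that of all genes -0.95. The steepest falls were those of Hist3h2ba (-3.30, SE 0.53, adjusted p = 3.7e-05), Hist1h4i (-2.87, SE 0.30, adjusted p = 3.5e-07) and Hist3h2a (-2.13, SE 0.25, adjusted p = 1.4e-06). Under median-ratio scaling 5 of 18 members fell and 1, Hist2h3c1, rose, against 45.7% of all genes called in either direction. The named 3 were still called lower.

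From GV to MII in WT, 15 of 23 members fell and 0 rose, while 83.4% of all genes fell and 0.0551% rose. The 15 include Hist2h2ac and Hist2h3b, which passed the filter through WT GV alone. The members' median was -1.37 and that of all genes also -1.37. Hist1h2bc fell by 5.34 (SE 0.44, adjusted p = 8.5e-09), a mean 65.8-fold lower at MII. Hist1h2aa fell by 3.34 (SE 0.43, adjusted p = 2e-06) and Hist3h2ba fell by 3.07 (SE 0.53, adjusted p = 4.8e-05). By histone, 4 of 7 H2B, 3 of 4 H2A, 3 of 4 H3, 3 of 6 H4 and both H1 members fell. With scaling 6 of 18 fell and 0 rose, beside 58.0% of all genes called either way. The scaled change of Hist1h2bc was -3.71 and that of Hist1h2aa -1.57, both called, and that of Hist3h2ba -1.52 (adjusted p = 0.069), not called.

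From MII to the zygote in WT, 1 of 23 members rose and 0 fell, while 1.04% of all genes rose and 3.22% fell. The 1 was Hist2h2ac, an H2A gene that was listed at 0 in both MII libraries and lay at 0.410 and 0.850 FPKM in zygotes. With scaling 3 of 18 were called higher, Hist2h2ac, Hist1h4c and Hist2h2bb, and 0 lower, beside 19.9% of all genes in either direction. On the scaled values Hist2h2ac passed the filter through WT zygotes alone (0.949 and 2.80), so its scaled direction follows from the filter. On the deposited scale the call of Hist2h2ac was lost without either MII library or without the second zygote library.

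In Cnot6l-/- oocytes the median GV to MII change of all genes was -0.82 and that of the members -1.04, and Hist1h2bc did not pass the test. Here 15 of 23 members fell and 0 rose, while 59.9% of all genes fell and 0.0459% rose. The 15 include Hist1h2ag and Hist1h4m, which passed the filter through Cnot6l-/- GV alone. Hist1h2bc changed by -0.47 (SE 0.44, adjusted p = 0.35), and by +0.55 after scaling, so its direction depends on the scale. The steepest falls were in Hist1h4d (-2.82, SE 0.59, adjusted p = 0.00063), Hist3h2ba (-2.42, SE 0.53, adjusted p = 0.00082) and Hist3h2a (-2.20, SE 0.25, adjusted p = 1.8e-06). With scaling 2 of 18 fell, Hist1h4d and Hist3h2a, beside 25.8% of all genes called either way. Hist1h2aa fell by 1.04 (adjusted p = 0.046), a call lost without any 1 of the 4 libraries.

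In the labelled Btg4-/- libraries 15 of 23 members fell from GV to MII and 0 rose, while 75.3% of all genes fell and 0.0368% rose. The steepest falls were in Hist1h4h (-2.34, SE 0.37, adjusted p = 2.9e-05), Hist1h1c (-2.07, SE 0.31, adjusted p = 1.6e-05) and Hist3h2ba (-2.02, SE 0.53, adjusted p = 0.0026). Hist1h2bc fell by 1.56 (SE 0.44, adjusted p = 0.0045), and after scaling its change of -0.33 was not called. With scaling 4 of 18 members fell, beside 31.3% of all genes called either way.

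The part of the GV level present at MII shows the members one by one. In WT, MII held 1.52% of the GV mean of Hist1h2bc, 8.43% of Hist1h2aa, 9.05% of Hist3h2ba and 30.0% of Hist1h1a. Pairs of single libraries gave 2.13% to 22.98% for Hist3h2ba and 19.3% to 55.4% for Hist1h1a. For all 5904 genes with at least 5 FPKM at WT GV the median was 13.1%, and 88.2% of them kept more than Hist1h2bc. In Cnot6l-/- the shares were 70.2% for Hist1h2bc, 48.1% for Hist1h2aa, 12.1% for Hist3h2ba and 12.4% for Hist1h1a, beside a median of 37.4% over 5923 genes, of which 13.1% kept more than Hist1h2bc. Hist1h1a, at a mean of 3.83 FPKM in Cnot6l-/- GV, is not among these genes, and its pairs of libraries gave 2.21% to 37.4%, which overlaps its WT range. Those of Hist1h2aa, 5.11% to 12.9% in WT and 42.4% to 54.2% in Cnot6l-/-, do not overlap. In labelled Btg4-/- they were 33.2%, 25.4%, 21.96% and 27.7%, beside a median of 34.5% over 6340 genes. After median-ratio scaling the Hist1h2bc share was 5.83% in WT, 148% in Cnot6l-/- and 82.1% in labelled Btg4-/-, beside medians of 50.8%, 76.8% and 81.5%, and that of Hist1h1a was 107% in WT and 28.1% in Cnot6l-/-. Pairing single libraries on the deposited scale moved the Hist1h2bc share between 1.24% and 1.85% in WT and between 45.9% and 113% in Cnot6l-/-.

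**Figure D4:**
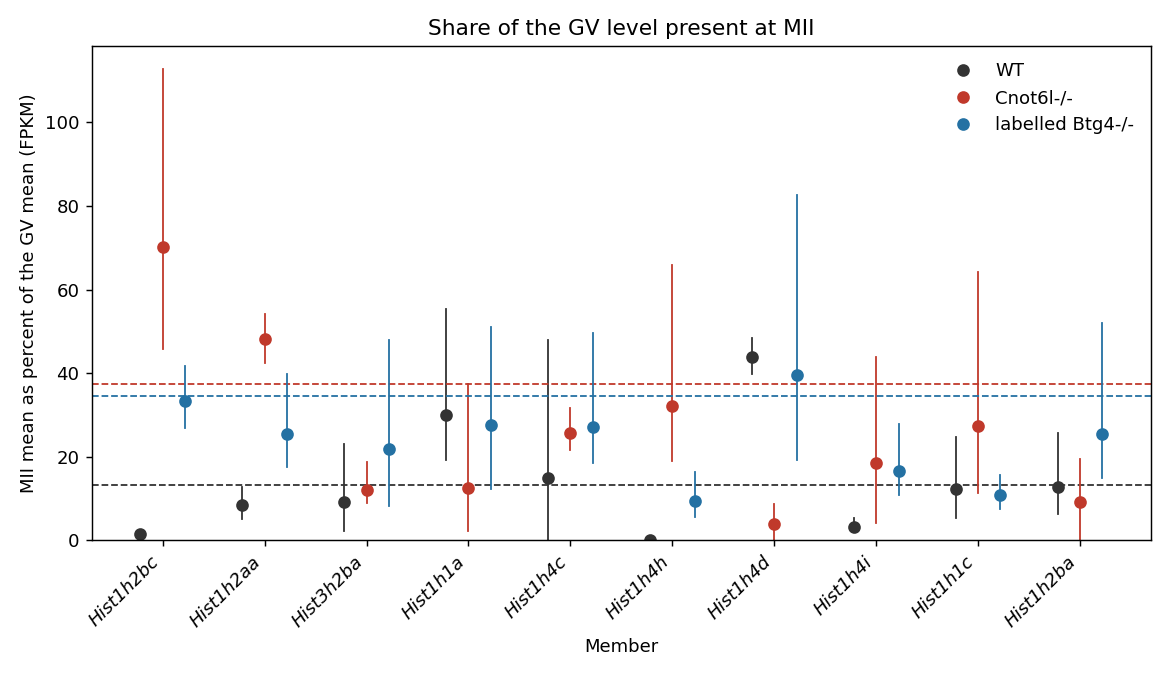
MII mean as percent of the GV mean (deposited FPKM) for the 10 members of the highest 12 that could be drawn in all genotypes; points are ratios of means, bars run from the lowest to the highest ratio of single libraries, and dashed lines are the medians of all genes with at least 5 FPKM at GV. Hist1h2bc goes from 1.52% in WT to 70.2% in Cnot6l-/- and 33.2% in labelled Btg4-/-.

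To test whether the genotypes differ in the GV to MII change, the difference of the changes was fitted in the same model. For Cnot6l-/- minus WT, 4 of 23 members were higher and 2 lower, while 24.1% of all genes were higher and 0.717% lower. Of these 6, Hist2h2ac, Hist1h2ag and Hist1h4m had passed the filter through 1 of the groups in the difference. The difference was 4.86 for Hist1h2bc (SE 0.62, adjusted p = 4.4e-05), 2.30 for Hist1h2aa (SE 0.61, adjusted p = 0.010) and 1.40 for Hist2h2bb (SE 0.43, adjusted p = 0.026). Only Hist1h2bc of the 18 members tested was called with scaling (4.27, adjusted p = 0.00058), where 15.7% of all genes were called either way. The calls of Hist1h2aa and Hist2h2bb were lost without the first WT MII library (1.93, adjusted p = 0.058, and 1.17, adjusted p = 0.11), and that of Hist2h2bb also without the first WT GV (1.26), first Cnot6l-/- GV (0.99) or second Cnot6l-/- MII library (0.97).

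For labelled Btg4-/- minus WT, 3 of 23 members were higher and 0 lower, while 13.3% of all genes were higher and 0.579% lower. Of these 3, Hist2h2ac had passed the filter through WT GV alone, a group in the difference, so its direction follows from the filter. The difference was 3.77 for Hist1h2bc (SE 0.62, adjusted p = 0.00067) and 1.19 for Hist3h2a (SE 0.36, adjusted p = 0.033). With scaling Hist1h2bc alone of 18 members was called (3.39, adjusted p = 0.0039), beside 14.8% of all genes. The Hist3h2a call was lost without any 1 of 6 of the 8 libraries (0.88 to 1.21, adjusted p from 0.055 to 0.17). The same WT libraries serve both differences, so the pair of results is not independent.

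At each stage the mutants were then compared with WT, again sharing the WT libraries. At GV, Cnot6l-/- had 3 of 23 members higher and 3 lower, while 6.06% of all genes were higher and 3.02% lower. Of these, Hist1h2ag and Hist1h4m, called higher, passed the filter through Cnot6l-/- GV alone. Hist2h2ac, called lower, passed it through WT GV alone. The directions of these members follow from the filter. Hist2h3c1 was higher (0.89, SE 0.22, adjusted p = 0.013), and Hist1h1a (-1.66, SE 0.47, adjusted p = 0.030) and Hist2h2bb (-1.35, SE 0.31, adjusted p = 0.0074) were lower. With scaling 1 of 18, Hist2h3c1, was higher and 0 lower, beside 7.55% of all genes either way. Hist1h2bc lay 2.15-fold above WT at GV and did not pass the test (1.05, SE 0.44, adjusted p = 0.19). Hist2h3c1 lost its call without either Cnot6l-/- library or the second WT library (0.53, adjusted p = 0.18, at the lowest), and Hist2h2bb without the first library of either group (-1.21, adjusted p = 0.064, and -0.93, adjusted p = 0.13). The Hist1h1a call was lost without the second WT library (-1.09, adjusted p = 0.25) or the first Cnot6l-/- library (-1.16, adjusted p = 0.30).

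At MI, Cnot6l-/- had 9 of 23 members higher and 2 lower, while 60.3% of all genes were higher and 1.30% lower. Hist1h2bc was 4.25-fold higher (2.06, SE 0.44, adjusted p = 0.00064), Hist3h2ba 4.55-fold higher (1.63, SE 0.53, adjusted p = 0.013), and Hist1h4i, listed at 0 in WT, was higher by 1.78 (SE 0.30, adjusted p = 7e-05). Hist1h1a was 9.29-fold lower (-2.51, SE 0.47, adjusted p = 0.00017), which ranked it 10872 of 10884 genes from the highest change. With scaling 3 of 18 members were higher and 2 lower, Hist1h1a (-3.12) and Hist1h1c (-1.04), beside 46.8% of all genes either way. Of the 3, Hist1h3g passed the scaled filter through Cnot6l-/- MI alone, so its direction follows from the filter. Hist1h2bc (1.13, adjusted p = 0.075) and Hist3h2ba (0.92, adjusted p = 0.30) were then not called. The Hist3h2ba call was also lost without the WT library numbered 3 (1.36, adjusted p = 0.10) or the Cnot6l-/- library numbered 3 (1.41, adjusted p = 0.086).

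At MII, Cnot6l-/- had 6 of 23 members higher and 1 lower, while 44.3% of all genes were higher and 0.671% lower. Hist1h2bc was 99.5-fold higher (5.91, SE 0.44, adjusted p = 4.8e-08) and ranked 4 of 10884 genes. Hist1h2aa was 7.90-fold higher (2.78, SE 0.43, adjusted p = 6.1e-05), and Hist1h4h, listed at 0 in WT, was higher by 2.01 (SE 0.37, adjusted p = 0.00029). Hist1h1a was 9.22-fold lower (-1.91, SE 0.47, adjusted p = 0.0031) and ranked 10863. With scaling 5 of 18 were higher and 2 lower, Hist1h1a (-2.64) and Hist1h4d (-1.77), beside 43.0% of all genes either way, and Hist1h2bc was higher by 5.38.

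In zygotes, Cnot6l-/- had 2 of 23 members higher and 1 lower, while 8.00% of all genes were higher and 0.413% lower. Hist1h2bc was 131-fold higher (5.62, SE 0.44, adjusted p = 5.7e-07), the highest change of the 10884 genes. Leaving out 1 library moved the difference between 4.70 (without the second Cnot6l-/- one) and 6.54 (without the first), called each time. Hist1h2aa was 4.65-fold higher (2.03, SE 0.43, adjusted p = 0.0062), a call lost without the second WT zygote library (1.5, adjusted p = 0.10) or the second Cnot6l-/- one (1.55, adjusted p = 0.14). The lower member was Hist2h2ac, listed at 0 in Cnot6l-/-. With scaling 2 of 18 were higher and 2 lower (Hist2h2ac and Hist2h2bb), beside 15.9% of all genes either way. The scaled Hist2h2ac values passed the filter through WT zygotes alone, so this direction follows from the filter.

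In the labelled Btg4-/- libraries at GV, 0 of 23 members were higher and 2 lower, while 6.10% of all genes were higher and 1.33% lower. Of these, Hist2h2ac passed the filter through WT GV alone, so its direction follows from the filter. Hist3h2a was 2.89-fold lower (-1.16, SE 0.25, adjusted p = 0.0099), and was the 1 of 18 members called with scaling, beside 1.77% of all genes. Its call was lost without the first labelled Btg4-/- library (-0.85, adjusted p = 0.14). Hist1h2bc lay 2.13-fold above WT without passing the test (1.07, SE 0.44, adjusted p = 0.15).

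At MI, 8 of 23 members were higher and 1 lower in the labelled Btg4-/- libraries, while 68.7% of all genes were higher and 0.432% lower. Hist3h2ba was 18.3-fold higher (3.5, SE 0.53, adjusted p = 1.9e-05), Hist1h4h 12.3-fold higher (2.37, SE 0.37, adjusted p = 2.7e-05), and Hist1h4i, listed at 0 in WT, was higher by 2.07 (SE 0.30, adjusted p = 1.3e-05). These were also the 3 of 18 called with scaling, beside 42.3% of all genes, and 0 were then lower. Of the 7 H2B members 4 were higher, and of the 6 H4 members 2. Hist1h1a, lower in Cnot6l-/- at this stage, differed from WT by -0.11 here (SE 0.47, adjusted p = 0.84), and the difference between the mutants was not tested.

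At MII, 3 of 23 members were higher and 0 lower in the labelled Btg4-/- libraries, while 28.3% of all genes were higher and 0.340% lower. Hist1h2bc was 46.6-fold higher (4.85, SE 0.44, adjusted p = 7.2e-07), Hist1h2aa 3.21-fold (1.53, SE 0.43, adjusted p = 0.012) and Hist1h4c 4.96-fold (1.28, SE 0.46, adjusted p = 0.048). With scaling Hist1h2bc alone of 18 was called (4.41), beside 28.4% of all genes. The calls of Hist1h2aa (1.16, adjusted p = 0.14) and Hist1h4c (0.79, adjusted p = 0.38) were lost without the first WT MII library, and without the first labelled Btg4-/- library (1.39, adjusted p = 0.099, and 1.27, adjusted p = 0.18). Hist1h4c was also not called without the second one (1.29, adjusted p = 0.11).

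In zygotes, 1 of 23 members was higher and 1 lower in the labelled Btg4-/- libraries, while 21.5% of all genes were higher and 0.0459% lower. Hist1h2bc was 51.3-fold higher (4.55, SE 0.44, adjusted p = 2.7e-06), and Hist2h2ac, below 1 FPKM in both groups, was lower. With scaling 1 of 18 was higher and 2 lower (Hist2h2ac and Hist2h2bb), beside 14.8% of all genes. Again the scaled Hist2h2ac values passed the filter through WT zygotes alone, so this direction follows from the filter. The Hist1h2bc difference kept its call without each library of the comparison in turn, at 4.29 to 4.80. Fitted with only the 4 libraries compared it was not called (adjusted p = 0.11), and limma called 0 of all 10884 genes (2527 at an unadjusted p under 0.05).

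**Figure D5:**
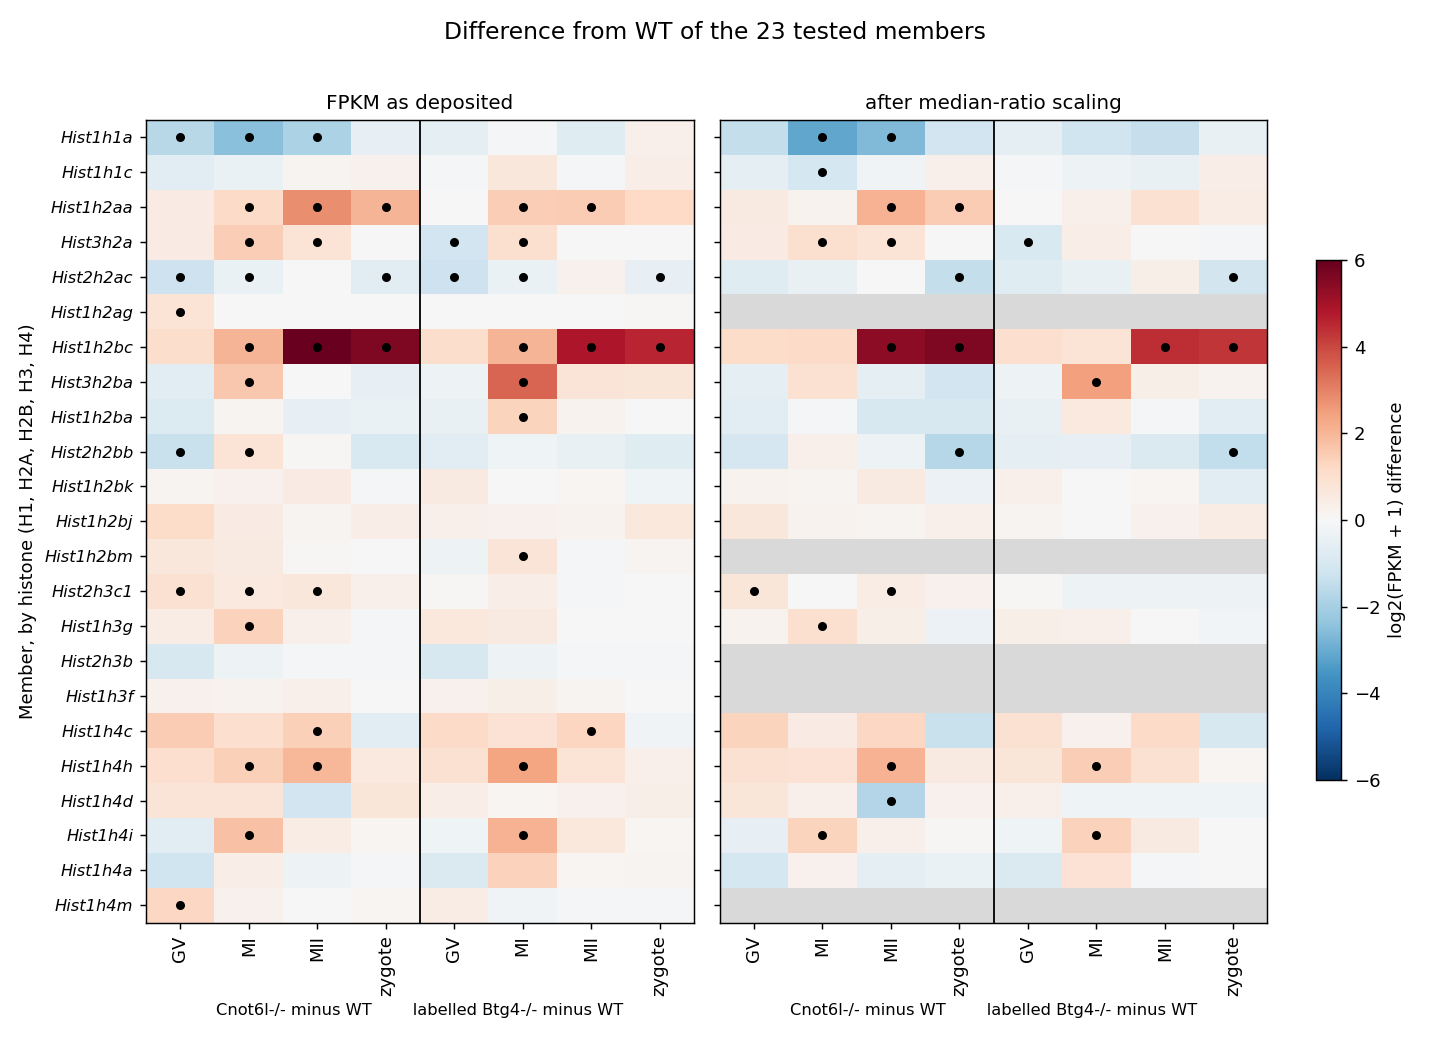
Difference of log2(FPKM + 1) from WT for the 23 tested members at each stage, as deposited (left) and after median-ratio scaling (right); red is higher and blue lower than WT, black dots mark calls, and grey marks members below the filter after scaling. Hist1h2bc stands out at MII and in zygotes of both mutants on both scales, and Hist1h1a is lower in Cnot6l-/- at MI and MII on both scales.

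Genes that process, transcribe and turn over histone mRNA were read from a list of 22, of which 21 were tested. The counts for this list and the 2 lists below are on the deposited scale. From GV to MII in WT 16 fell and 0 rose, beside 83.4% of all genes that fell, with a median change of -1.0 beside -1.37 for all genes. Slbp, which encodes the stem-loop binding protein, stayed high at a mean of 1186 FPKM at GV and 574 at MII (-1.05, SE 0.41, adjusted p = 0.025), a call lost without the first GV library (adjusted p = 0.13) or the second MII library (0.12), and its scaled change was +0.89. Lsm10, a subunit of the U7 particle that cuts histone pre-mRNA, fell by 6.51 (adjusted p = 6.2e-11), and Cpsf3, the nuclease of that cut, fell by 3.41 (adjusted p = 6.3e-10). Casp8ap2 (-0.40, adjusted p = 0.44), which acts in histone gene transcription, and Upf1 (-0.42, adjusted p = 0.38), a helicase of histone mRNA decay, were not called. In Cnot6l-/- MII 5 of the 21 were higher than WT and 0 lower, beside 44.3% of all genes higher, among them Lsm10 (4.09, adjusted p = 1.8e-07) and Cpsf3 (1.5, adjusted p = 5e-05). Slbp differed by 0.11 (adjusted p = 0.86), Upf1 by -0.30 (adjusted p = 0.63) and Cpsf2, a partner of CPSF3, by -0.31 (adjusted p = 0.48).

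Among 12 histone genes outside the clusters, 11 fell from GV to MII in WT and 0 rose, with a median of -2.02, beside 83.4% of all genes that fell and their median of -1.37. H2afv and H2afx, genes of H2A variants, changed by -4.42 (adjusted p = 2e-08) and -4.04 (adjusted p = 6.5e-06). H1foo, the oocyte linker histone, was the most abundant at a mean of 4244 FPKM at GV and 2232 at MII (-0.97, adjusted p = 0.063), and Cenpa, the centromeric H3, fell by 1.51 (adjusted p = 0.00018). In Cnot6l-/- MII 7 of the 12 were higher and 0 lower, beside 44.3% of all genes higher, including H2afx (2.15, adjusted p = 0.0059) and H3f3a (1.78, adjusted p = 0.0014), while H1foo (0.19, adjusted p = 0.77) and Cenpa (0.03, adjusted p = 0.96) were not called. The H2afx call was lost without the first WT MII library (1.78, adjusted p = 0.066).

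Among 12 S phase genes, 10 fell from GV to MII in WT and 0 rose, with a median of -1.38, close to the 83.4% and -1.37 of all genes. Rpa2, a subunit of the single-strand DNA binding complex, fell by 5.85 (adjusted p = 9e-12) and Tyms, which makes thymidylate, fell by 4.95 (adjusted p = 6e-10). Ccne1, a cyclin of S phase entry, fell by 0.66 (adjusted p = 0.0074), a call lost without the first WT MII library (-0.55, adjusted p = 0.064), and Pcna, the replication clamp, changed by -0.81 (adjusted p = 0.16). In Cnot6l-/- MII 5 of the 12 were higher and 0 lower, near the 44.3% of all genes higher, with Rpa2 at 2.76 (adjusted p = 2.2e-07) and Tyms at 2.04 (adjusted p = 9.2e-05), while Rrm1 (-0.29, adjusted p = 0.48) and E2f1 (-0.32, adjusted p = 0.21) were not called. Under scaling the changes of Slbp, Casp8ap2, Upf1, H1foo, Cenpa, Ccne1 and Pcna from GV to MII in WT turned positive, and the differences of Slbp, H1foo and Cenpa between Cnot6l-/- and WT at MII turned negative.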

How the data were processed

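The deposited unit is FPKM, given for 23235 genes in 24 libraries; per the submitters' processing notes, the authors worked on mm9 with CASAVA 1.8, TopHat2 2.0.11, Bowtie2 2.1.0 and Cufflinks 2.2.1. The role of each tool and how FPKM were scaled between libraries are not given in the sources used here. Counts were not analysed here, so depth is unknown and no interval from counts is given. Groups came from the sample titles; the MI columns are numbered 2 and 3 where the titles give 1 and 2.

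Values were tested as log2(FPKM + 1) with limma 3.58.1 in R 4.3.3 (1 mean per group, all 24 libraries, eBayes with trend, two-sided, Benjamini-Hochberg over genes whose mean reached 1 FPKM in any of 12 groups). The test was checked on simulated data. Members and gene lists were chosen with earlier results of these data known. Members were named with values in every library for the 12 highest group means, and per comparison for the 3 highest and 3 lowest called changes where the higher group reached 2 FPKM; the list genes were named by the 2 highest and 2 lowest changes, with Slbp. Each count was recomputed with median-ratio scaling, with 0.1 in place of 1 as pseudocount, without the filter, with only the libraries compared, with a replicate block and without each library. Counts over the gene lists under these settings were added after seeing the data. Sequences are from the mm9 genome. Annotated transcripts came from GENCODE, and no protein table was used here.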

Additional observations from a re-analysis of the deposited data

Results flagged for a closer look

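The differences below were singled out because the GV to MII change differed between a mutant and WT by limma's interaction term at adjusted p under 0.05. They are given as log2(FPKM + 1) differences of changes. In Cnot6l-/- they were 4.86 for Hist1h2bc, 2.30 for Hist1h2aa, 1.40 for Hist2h2bb and 1.22 for Hist2h2ac, with -0.81 for Hist1h2ag and -1.21 for Hist1h4m. The last 3 lay below 2 FPKM in every group mean, and they passed the filter on low values only through a GV group that enters the difference, so their direction follows from the filter and they are given as values only, as is Hist2h2ac in the labelled Btg4-/- libraries. Hist1h4m shares its whole reading frame with Hist1h4n. In the labelled Btg4-/- libraries they were 3.77 for Hist1h2bc, 1.47 for Hist2h2ac and 1.19 for Hist3h2a. Of these members, Hist1h2bc was also called under median-ratio scaling in both mutants.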

How the results depend on the processing

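Scaling decides most counts, and the shares of all genes called with scaling are given with each comparison above. Median-ratio scaling gave 6 members called (of 18 tested) from GV to MI and 6 from GV to MII in WT, 3 from MII to zygote, 2 in Cnot6l-/- and 4 in labelled Btg4-/- from GV to MII, 1 at GV and 5 at MI for Cnot6l-/- against WT, 1, 3 and 1 at GV, MI and MII for labelled Btg4-/- against WT, and 1 for each difference of changes. With no filter the counts were 0 from MII to zygote, 4 at GV and 1 in zygotes for labelled Btg4-/-, beside 87 higher and 265 lower, 1052 higher and 300 lower, and 1862 higher and 5 lower of all 23235 genes, in that order. With only the libraries compared they were 0 from MII to zygote, 1 at GV and 1 in zygotes for Cnot6l-/-, and 0, 14 and 0 at GV, MI and in zygotes for labelled Btg4-/-. By limma over all 10884 genes, the same fits called 0 from MII to zygote (1472 at an unadjusted p under 0.05). For Cnot6l-/- they called 116 higher and 88 lower at GV and 3 higher and 2 lower in zygotes. For labelled Btg4-/- they called 7 higher and 16 lower at GV, 8781 higher and 74 lower at MI, and 0 in zygotes (2527 at an unadjusted p under 0.05). A pseudocount of 0.1 gave 4 from MII to zygote, 2 at GV for Cnot6l-/-, and 1 at GV and 5 at MII for labelled Btg4-/-. Over all 10884 genes it called 507 higher and 719 lower, 354 and 215, 118 and 65, and 4292 and 51, in that order.

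The replicate block gave 2 from MII to zygote, 10 at GV for Cnot6l-/-, and 14 at MI and 5 at MII for labelled Btg4-/-. Over all 10884 genes it called 108 higher and 387 lower, 724 and 366, 8945 and 75, and 3327 and 43, in that order. Nothing in the labels pairs the libraries, and each comparison has 2 libraries a group. Same-numbered libraries deviated with r from -0.307 to 0.706 over 39 pairs of groups, above 0.1 in 28 (0.522 for WT and Cnot6l-/- GV) and at 0.1 or less in 11, each of which involves MI or labelled Btg4-/- GV libraries. No paired analysis was possible for WT MI against GV because their columns share fewer than 2 numbers.

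Leaving out 1 library gave these ranges, with the libraries that moved a count by over 1.5 times. From MII to zygote in WT it gave 0 to 1 (0 without either MII or the second zygote library). From GV to MII in Cnot6l-/- it gave 9 to 15 (9 without the second GV library). For Cnot6l-/- against WT it gave 5 to 8 at MI (7 and 5 without the WT libraries numbered 2 and 3), 4 to 6 at MII (4 without the first library of either group) and 1 to 3 in zygotes (1 without the second library of either group). For labelled Btg4-/- against WT it gave 1 to 4 at GV (1 without its first and 4 without the first WT library), 1 to 3 at MII (1 without the first library of either group) and 1 to 3 in zygotes (1 without its first or the second WT library). For the Cnot6l-/- difference of changes it gave 3 to 8 (3 without the first WT MII library). Counts over all genes also changed when a library was left out, so such movement is not particular to the members. The cause was not tested for any of these changes.

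With scaling, these directions turned: Hist1h2bc from GV to MII in Cnot6l-/- was 0.55; from GV to MII in WT, Casp8ap2 was 1.38, Ccne1 0.34, Cenpa 0.39, H1foo 0.97, Pcna 1.12, Slbp 0.89 and Upf1 1.39; in Cnot6l-/- against WT at MII, Cenpa was -0.79, H1foo -0.64 and Slbp -0.72. Leaving out 1 library turned uncalled changes within these ranges: Casp8ap2 -0.82 to 0.029 and Upf1 -1.06 to 0.22 from GV to MII in WT, Hist1h2aa -0.46 to 0.605 from MII to zygote and -0.39 to 0.48 at labelled Btg4-/- GV, and at Cnot6l-/- MII Cenpa -0.050 to 0.101, H1foo -0.18 to 0.56, Slbp -0.26 to 0.48, Cpsf2 -0.65 to 0.032, Rrm1 -0.64 to 0.065 and Upf1 -0.94 to 0.35. FPKM without counts limits what can be said of members near 1 FPKM.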

Other observations

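Hist1h2bc and Hist1h1a were at opposite ends of the gene list in Cnot6l-/- at MII (rank 4 and 10863 of 10884). Both genes have the form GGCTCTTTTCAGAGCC, but in Hist1h2bc it lies in the intron of the annotated transcript. A role of the stem-loop was not tested. Among the 8 models that end 0 to 20 bases after the stem-loop, 4 were tested, and Hist1h1a had the highest level of these. The overlapping models of Hist1h4m and Hist1h4n are identical in their 309 coding bases, so their values cannot be told apart.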
